A study of Mus musculus with 8 samples.

Results

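The genes described here are 10 components of MHC class I antigen presentation (H2-K1, H2-D1, B2m, Tap1, Tap2, Tapbp, Psmb8, Psmb9, Psmb10 and Calr). They are 10 of the 18194 genes that the array's annotation pairs with a probe set of their own, and were measured in clonally expanded and polyclonal memory CD8 T cells of old mice. Members were all probe sets whose platform annotation names 1 of these genes and no other, which gave 29 of the 45101 probe sets on the array. Of these, 22 passed a filter on low mean signal and were tested, among 22518 tested in all. The 7 that did not pass were 3 for H2-D1, 3 for Tap1 and 1 for Tapbp, and none of them read above 127 on any array. A further 3 probe sets list a member together with other genes and were assigned to no gene.

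Affymetrix Mouse Genome 430 2.0 arrays were hybridised with RNA from 8 samples, a clonal expansion and a polyclonal memory sample from each of 4 aged female mice. A clonal expansion is a population of CD8 T cells that share 1 T cell receptor. Mice 1 and 2 were C57BL/10SnJ aged 20 months, mouse 3 was C57BL/10SnJ aged 23 months and mouse 4 was B10.BR aged 23 months. Cells came from spleen and lymph nodes and were sorted as CD8+ CD122+ MHC II-, expansions by a T cell receptor V beta chain and polyclonal cells by its absence. Those V beta markers were Vb3, Vb8.1/8.2, Vb8.3 and Vb14 in mice 1 to 4. Expansion 1 belonged to the integrin alpha4-high subclass, and expansions 2, 3 and 4 to the alpha4-low subclass, so the high subclass is a single clone. Each expansion is itself 1 clone from 1 mouse. B10.BR is a congenic strain with the k haplotype of the H2 complex on a C57BL/10 background, whereas C57BL/10SnJ carries the b haplotype, so that the 2 strains have different alleles of H2-K1 and H2-D1. Strain is held by 1 mouse, and strain and mouse cannot be told apart.

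MHC class I molecules display peptides from the cytosol to CD8 T cells. A polymorphic heavy chain (H2-K1 or H2-D1) pairs with the invariant light chain beta 2-microglobulin (B2m). Peptides are cut by the proteasome, in which the immunoproteasome subunits Psmb8, Psmb9 and Psmb10 can replace the constitutive subunits Psmb5, Psmb6 and Psmb7. The Tap1-Tap2 transporter carries them into the endoplasmic reticulum, where tapasin (Tapbp) and calreticulin (Calr) hold the empty heavy chain for loading. Most nucleated cells express this pathway, T cells included, and interferon gamma raises it through regulators that include Irf1 and Nlrc5.

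Promoter windows show where the members share or lack the elements known from class I genes. RefSeq windows (GRCm38.p6, 250 bases before to 50 after the annotated start) were matched by symbol for 9 of the 10 genes. The reference genome is from C57BL/6J, which has the b haplotype. Capitals mark matches, on either strand, to a kappaB-type motif (GGG, any 2 bases, TT, any base, CC), 2 forms of an IRF-type motif (form A is GAAA, any 2 bases, GAAA, and form B, with a spacing shorter by 1 base, is GAANNGAAA), the CRE core (TGACG), the CCAAT box (ATTGG) and a GAS-type motif (TTCNNNGAA). The windows of both heavy chains, of B2m and of Tap1 are printed for the elements that the first 3 have in common, and that of Calr for comparison.
H2-K1, chr17:34000298-34000597, minus strand: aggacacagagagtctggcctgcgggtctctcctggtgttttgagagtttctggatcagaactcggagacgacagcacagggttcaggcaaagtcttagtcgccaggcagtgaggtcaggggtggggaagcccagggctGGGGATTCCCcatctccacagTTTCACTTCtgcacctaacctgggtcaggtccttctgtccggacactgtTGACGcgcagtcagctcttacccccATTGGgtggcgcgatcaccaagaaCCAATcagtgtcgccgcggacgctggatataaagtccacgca
H2-D1, chr17:35262844-35263143, plus strand: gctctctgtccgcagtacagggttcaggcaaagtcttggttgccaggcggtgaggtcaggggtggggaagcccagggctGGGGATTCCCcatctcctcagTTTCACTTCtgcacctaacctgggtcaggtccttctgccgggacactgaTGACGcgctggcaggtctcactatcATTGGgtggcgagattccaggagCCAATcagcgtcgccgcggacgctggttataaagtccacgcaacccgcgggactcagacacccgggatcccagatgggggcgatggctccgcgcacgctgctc
B2m, chr2:122147437-122147736, plus strand: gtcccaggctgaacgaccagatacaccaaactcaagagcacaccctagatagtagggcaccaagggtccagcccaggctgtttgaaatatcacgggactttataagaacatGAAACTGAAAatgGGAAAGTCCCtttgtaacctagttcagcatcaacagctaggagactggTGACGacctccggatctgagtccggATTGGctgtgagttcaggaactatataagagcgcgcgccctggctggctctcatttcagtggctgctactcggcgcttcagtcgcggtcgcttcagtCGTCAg
Tap1, chr17:34187306-34187605, plus strand: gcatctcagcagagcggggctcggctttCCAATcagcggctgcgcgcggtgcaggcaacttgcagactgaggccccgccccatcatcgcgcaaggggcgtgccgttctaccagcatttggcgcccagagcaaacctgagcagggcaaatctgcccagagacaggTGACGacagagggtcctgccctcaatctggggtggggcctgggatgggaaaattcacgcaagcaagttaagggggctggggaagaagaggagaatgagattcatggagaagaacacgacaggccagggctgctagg
Calr, chr8:84846882-84847181, minus strand: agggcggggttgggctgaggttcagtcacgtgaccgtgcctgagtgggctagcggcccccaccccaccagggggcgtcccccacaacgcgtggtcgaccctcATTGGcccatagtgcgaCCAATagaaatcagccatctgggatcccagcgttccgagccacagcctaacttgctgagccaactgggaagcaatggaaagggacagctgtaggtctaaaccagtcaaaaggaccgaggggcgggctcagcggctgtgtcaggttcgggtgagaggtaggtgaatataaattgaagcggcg

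The kappaB-type motif was found in 3 of the 9 windows, those of H2-K1, H2-D1 and B2m, and in 4.79% of all 32851 windows. The same 3 hold an IRF-type motif, form B in both heavy chains (7.52% of all windows) and form A in B2m (3.44%). The CRE core was found in 5 member windows (20.8% of all) and the CCAAT box in 7 (37.4% of all). The windows of Tap1 and Psmb9 are read from opposite strands and share 275 bases, so they are not independent. Those of H2-K1 and H2-D1 are not independent either, as much of their sequence is alike at a shifted position. Their kappaB-type match, for example, begins at -111 in H2-K1 and -171 in H2-D1. The GAS-type motif (8.3% of all windows) was found in that of Psmb8 alone among the 9, and Psmb10 had none of the 6 motifs. These are matches of letters, and binding was not measured.

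**Figure D1:**
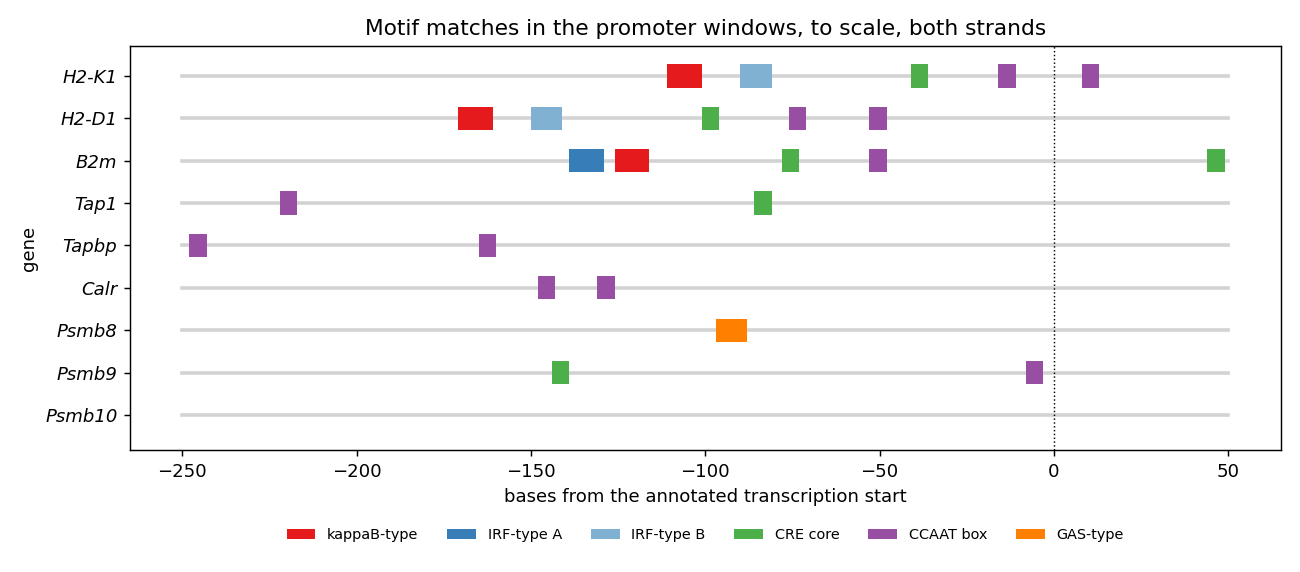
Positions of motif matches (coloured boxes) in the promoter windows of 9 member genes (rows), in bases from the annotated transcription start. H2-K1, H2-D1 and B2m each show a kappaB-type and an IRF-type match next to each other upstream of a CRE core and a CCAAT box.

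Values are MAS5 signals, a linear brightness for each probe set, and a different probe set's level cannot be compared with it. Background was taken as the 95th percentile of 27 bacterial control probe sets and lay between 33.7 and 61.9 over the 8 arrays. All 10 CD8 T cell markers, Cd8a and Cd3e among them, were above background on 8 of 8 arrays. The labels give a sort purity of 91, 95, 96 and 98% to the 4 expansions, and of 97, 75, 66 and 97% to their polyclonal partners. Markers of other cells were above background on 8 of 8 arrays for 3 of 4 NK, 3 of 9 B cell, 5 of 12 myeloid and dendritic, 3 of 11 class II presentation and 1 of 4 helper T cell genes. Ncr1 (NK cells) was above background on 0 arrays, and Cd4 (helper T cells) only in polyclonal samples 2 and 3, at 43.9 and 101. Summed signals of the 9 B cell markers were 3161 to 4156 in expansions and 2199 to 4743 in polyclonal samples. Those of the 12 myeloid and dendritic markers were 6632 to 19111 and 3575 to 14055, and those of the 4 NK markers 2854 to 6007 and 3267 to 33687. Of 3 NK marker genes tested, Klra8 and Klre1 among them, all had a lower mean in expansions (median log2 difference -1.57). The array of expansion 4 has a scanner record of its own, while its polyclonal partner shares one with mouse 3. In bulk RNA, fewer cells of a type and less RNA per cell cannot be told apart.

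The classical heavy chains gave the members' widest contrast, between mouse 4 and the other mice. The brightest H2-K1 probe set (1425336_x_at) read 12602, 8286 and 5109 in expansions 1 to 3 and 7148, 19974 and 11331 in their polyclonal partners. In mouse 4 its signals were 622 (expansion) and 932 (polyclonal). Both B10.BR values lay under all 6 C57BL/10SnJ values, whose mean was 10742 ± 5286 (SD, n = 6 arrays of 3 mice), a 12.7-fold difference of the means of log2(value + 5). The brightest H2-D1 probe set (1425545_x_at) read 3459, 1338 and 1969 in expansions 1 to 3 and 2048, 3714 and 2642 in their partners, but 152 and 147 in the expansion and polyclonal cells of mouse 4. That difference was 15.5-fold, and again the strains did not overlap.

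Other heavy chain probe sets mostly stood apart in the same direction. H2-D1 probe set 1451784_x_at read 1407 to 2892 in the 6 C57BL/10SnJ arrays and 31.3 and 76.9 in B10.BR, the first of these under the background of its array (33.7). For H2-D1 1426324_at the fold was 9.88. H2-D1 1451683_x_at read 335 to 903 in C57BL/10SnJ, and 71.4 and 36.03 in the expansion and polyclonal cells of mouse 4, the latter under its background of 40.8. H2-K1 1451931_x_at was 18.6-fold lower in B10.BR. H2-K1 1450534_x_at was not above background on either B10.BR array, and its signal was at least 3.50-fold lower there. The last H2-K1 probe set (1427746_x_at) was also lower on both B10.BR arrays, at 87.5 and 184.9 against 313 to 2303, with a narrower gap.

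In the opposite direction stood H2-D1 1450170_x_at. It read 1040 and 1560 in the expansion and polyclonal cells of mouse 4, and 91.9 to 458 in the 6 C57BL/10SnJ arrays, a 6.01-fold difference with no overlap. So probe sets annotated to a single gene, H2-D1, gave opposite orders of the strains. The sixth tested H2-D1 probe set (1427651_x_at) was dim, from 18.8 to 144, and its B10.BR values lay inside the range of the others.

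**Figure D2:**
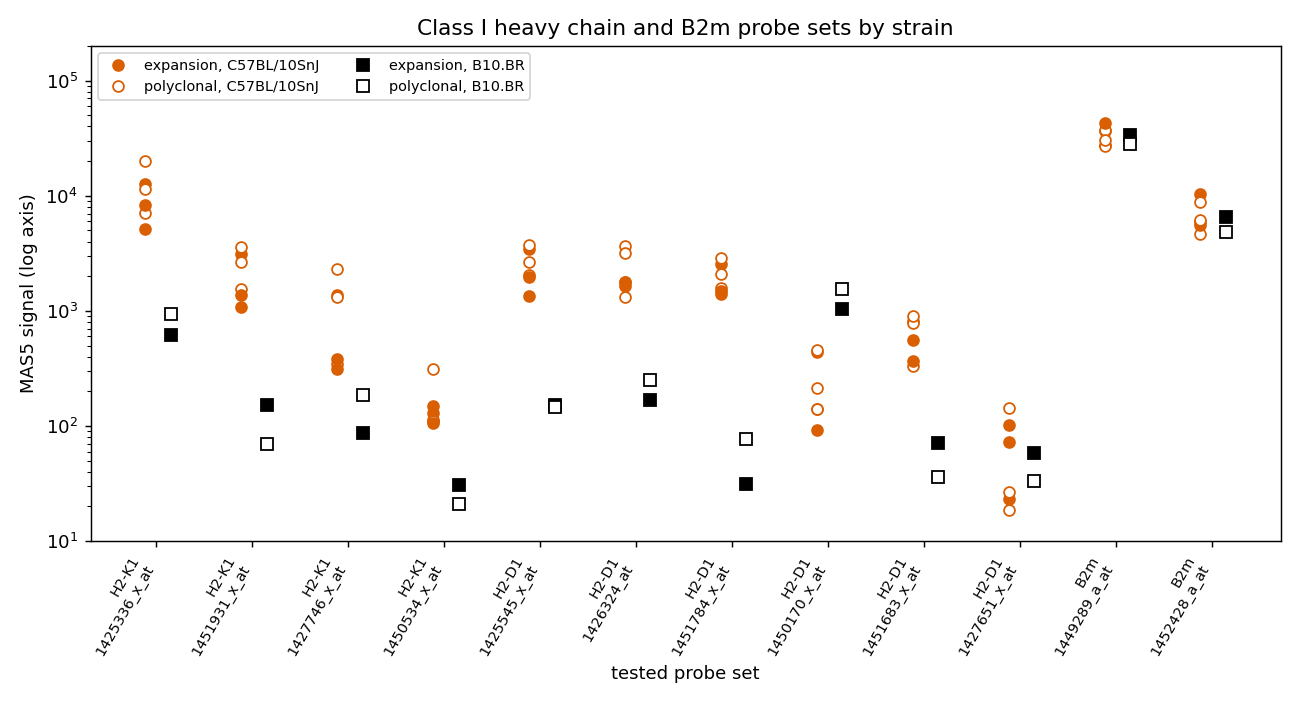
MAS5 signal (log axis) of the 12 tested H2-K1, H2-D1 and B2m probe sets on every array, with circles for the 6 C57BL/10SnJ arrays and squares for the 2 B10.BR arrays, filled for expansions. B10.BR squares lie under every circle for 8 of the 10 heavy chain probe sets and above them for 1, while those of B2m lie among or close to the circles.

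Counted by a fixed rule, 7 of the 22 member probe sets (31.8%) had both B10.BR arrays at least 1 log2 unit below the lowest C57BL/10SnJ array, against 0.253% of all 22518. In the other direction it was 1 member, against 0.0488% of all. These 8 were all heavy chain probe sets, 3 for H2-K1 and 5 for H2-D1, and probe sets of 1 gene share their target. No test was made, because 1 mouse represents B10.BR. The contrast appeared in both cell populations, since for the brightest H2-K1 probe set the log2 difference was -3.69 in expansions and -3.65 in polyclonal cells. For that of H2-D1 the differences were -3.74 and -4.17. With the polyclonal arrays alone, the count of lower members was again 7. The median log2 difference over all tested probe sets was -0.06. The suffix x marks probe sets that can match several transcripts, and the match of their probes to the k alleles was not tested.

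The position of the probe sets that stood apart was counted for those annotated to 1 gene, leaving out probe sets with several genes or none. In the gene order of the RefSeq table, the stretch of chromosome 17 from Tapbp to H2-T3 held 121 of the 18437 such probe sets tested (0.656%). It held 11 of the 47 that were lower in B10.BR by the same rule (23.4%) and 3 of the 7 that were higher (42.9%). Of the lower ones in the stretch, 7 were the heavy chain probe sets counted above, as was 1 of the higher ones. The other higher ones were for H2-T3, the gene that ends the stretch. Besides the heavy chains, H2-Q5, a class I gene near H2-D1, was lower on both B10.BR arrays at 32.9 and 19.8, against 276 to 722. H2-Aa, a class II gene, was lower at 302 and 332 against 872 to 1374. H2-T3, a nonclassical class I gene, was higher at 1059 and 2371, against 38.7 to 80.3 in C57BL/10SnJ (probe set 1452548_x_at).

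The light chain showed no such contrast. B2m (1449289_a_at) read 36201, 27543 and 42411 in expansions 1 to 3 and 37084, 27152 and 30784 in their partners, and 33402 and 28152 in the expansion and polyclonal cells of mouse 4. Its B10.BR values lay within the range of the other 6. Of the 12 member probe sets outside the heavy chains, for 8 genes, 0 met the rule in either direction. The brightest probe sets of Tap1, Tapbp and Calr had both B10.BR arrays under the lowest C57BL/10SnJ array, by 0.46, 0.41 and 0.03 log2 units, as had 7.03% of all tested probe sets by any amount. Their strain means differed 2.37-, 2.42- and 2.48-fold. Tap1 read 397 and 412 there, against 569 to 1532 elsewhere.

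**Figure D3:**
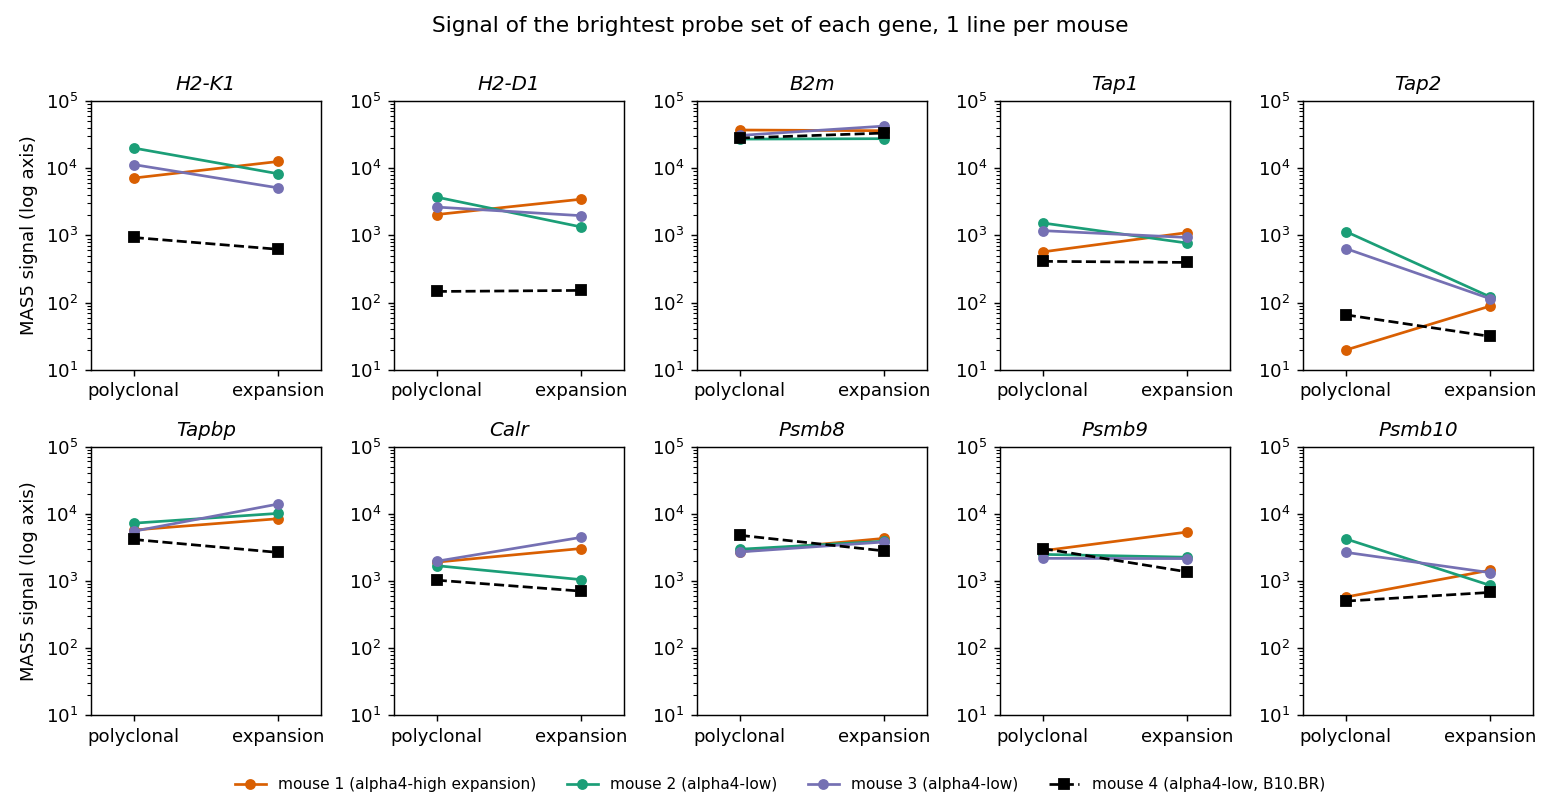
MAS5 signal (log axis) of the brightest probe set of each member gene in polyclonal and expansion cells, 1 line per mouse, dashed for mouse 4 (B10.BR). For H2-K1 and H2-D1 the dashed line lies far under the others, and for B2m all 4 lie together between 27152 and 42411.

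In the main comparison of the study, expansion against polyclonal cells of the same mouse, no member passed over all 4 pairs. Nor did any other tested probe set, and with 3 residual degrees of freedom a change could be missed. With limma, 0 of the 22 member probe sets had an adjusted p under 0.05, as did 0% of all 22518 (adjusted p = 0.9998 for each of the 10 brightest member probe sets). At an unadjusted p under 0.05 there was 1 member, against 3.25% of all probe sets. It was higher in expansions, as were 0.95% of all at that level. It was the dimmer Psmb8 probe set (1444619_x_at), with log2 differences of 1.11, 0.23, 1.60 and 0.87 in pairs 1 to 4 and a mean of 0.95 ± 0.57 (SD, n = 4). The brighter Psmb8 probe set (1422962_a_at) did not share this, at 0.66, 0.39, 0.49 and -0.77. By each gene's brightest probe set, 4 genes had a higher and 6 a lower mean difference, with a median of -0.10 against -0.04 over all tested probe sets, of which 53.9% had a mean below 0. One probe set, 1444619_x_at, was higher in all 4 pairs (4.79% of all), and 1, for H2-D1, was lower in all 4 (6.05% of all).

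Pair 1 had more members higher in the expansion than the other pairs had. In pair 1, whose expansion is alpha4-high, 9 of the 10 genes were higher in the expansion, and the median log2 difference was 0.79. In pairs 2, 3 and 4 the expansions were alpha4-low, and 7, 6 and 7 genes were lower, with medians of -0.84, -0.17 and -0.56. Over all tested probe sets the medians of the 4 pairs were 0.06, -0.22, 0.01 and 0.00. Of the 22 member probe sets, 7 (31.8%) were higher in expansion 1 and lower in each alpha4-low expansion than in the partner. The share over all tested probe sets was 8.96%. Those 7 cover 5 genes (H2-K1, H2-D1, Tap1, Tap2 and Psmb9), and the count was chosen after the values had been seen.

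**Figure D4:**
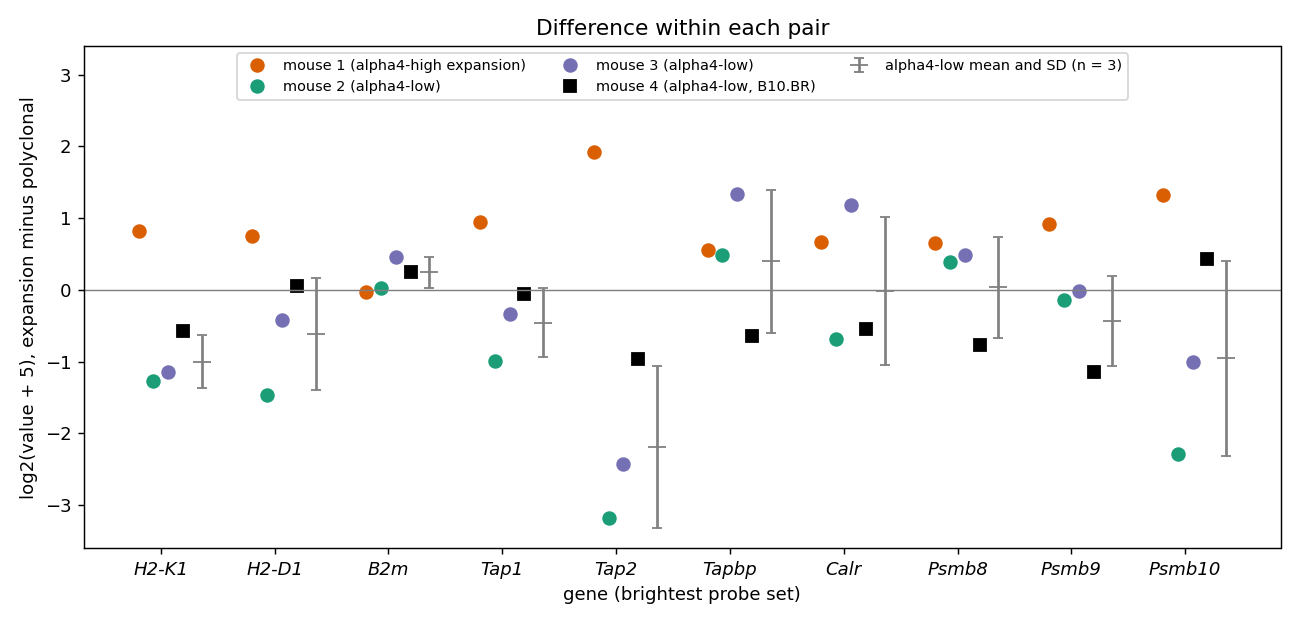
Difference of log2(value + 5), expansion minus polyclonal, in each pair for the brightest probe set of each member, with the mean and SD of the 3 alpha4-low pairs as a grey bar. Mouse 1 lies above 0 for 9 of 10 genes. For H2-K1, Tap1, Tap2 and Psmb9 the 3 alpha4-low pairs all lie below 0, though some of Tap1 and Psmb9 only just.

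Among the heavy chains, H2-K1 was lower in the alpha4-low expansions than in their partners in 3 of 3 pairs, without passing the test. The log2 difference of its brightest probe set was -1.27, -1.15 and -0.58 in pairs 2 to 4 (mean -0.999, SE 0.37, limma adjusted p = 0.908), and 0.82 in pair 1. Probe set 1427746_x_at gave -2.86, -1.77 and -1.04 in those pairs (mean -1.89, SE 0.45, limma adjusted p = 0.425) and 1.96 in pair 1. Its signal was 2303 in polyclonal sample 2 against 313 in the expansion, and 1318 against 383 in pair 3. The other pair of H2-K1 probe sets was not lower in each of the 3, and read 0.46 and 1.08 in pair 4. For H2-D1 the brightest probe set gave -1.47, -0.42 and 0.05 (limma adjusted p = 0.989). Of its other tested probe sets, 1426324_at, 1450170_x_at and 1451784_x_at were lower in 3 of 3 alpha4-low pairs. None of them passed (limma adjusted p = 0.966, 0.989 and 0.966). The difference of 1450170_x_at was only -0.06 in pair 3, and expansion 4 was under background for 1451784_x_at. The remaining 1451683_x_at and 1427651_x_at were lower in pairs 2 and 3 but higher in pair 4 (0.90 and 0.72). For both, polyclonal sample 4 was under background. Both arrays of pair 2 were also under background for 1427651_x_at, at 23.4 and 26.6, so its difference there has no exact size.

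B2m hardly moved within pairs. Its log2 differences were -0.03, 0.02, 0.46 and 0.25 in pairs 1 to 4, with a mean of 0.17 ± 0.23 (SD, n = 4). A second probe set (1452428_a_at) gave 0.22, 0.34, -0.12 and 0.41.

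The transporter subunits differed in size. Tap2 (1453913_a_at) read 88.8, 122, 114 and 31.5 in expansions 1 to 4 and 19.7, 1142, 638 and 65.8 in the polyclonal samples. It was thus high in polyclonal samples 2 and 3, and under background in expansion 4 and polyclonal sample 1, so that its differences in pairs 1 and 4 have no exact size. Pair 1 had a log2 difference of 1.92, and pairs 2 to 4 had -3.18, -2.43 and -0.96 (alpha4-low mean -2.19, SE 0.52, limma adjusted p = 0.389). Without pair 4, the 2 alpha4-low pairs left passed the test at -2.80 on the log2 scale (limma adjusted p = 0.00396). H2-K1 1427746_x_at passed without pair 3, at -1.95 (limma adjusted p = 0.0299). Without pair 4, 157 of all probe sets passed in this comparison, and without pair 3, 138, against 12. In both of those fits the measured spread came only from the 2 alpha4-low pairs left. They had fewer residual degrees of freedom than the 2 of the main fit. Tap1 (1416016_at) read 1102, 770, 933 and 397 in expansions and 569, 1532, 1178 and 412 in polyclonal cells. Its log2 differences were 0.95, -0.99, -0.33 and -0.05, higher in pair 1 and lower in the others.

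Of the loading chaperones, tapasin was higher in expansions 1 to 3 and lower in expansion 4. Tapbp (1421812_at) read 8445, 10141, 13959 and 2661 in expansions and 5731, 7245, 5505 and 4145 in polyclonal cells. Its alpha4-low mean log2 difference was 0.40 ± 0.99 (SD, n = 3; limma adjusted p = 0.989). Calr (1417606_a_at) read 3041, 1047, 4458 and 706 in expansions and 1909, 1688, 1969 and 1028 in polyclonal cells. It was higher in pairs 1 and 3 and lower in pairs 2 and 4, with differences of 0.67, -0.69, 1.18 and -0.54. The 2 other Calr probe sets followed it in pairs 1 to 3.

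The immunoproteasome subunits did not move as a group. Psmb10 (1448632_at) read 1446, 860, 1329 and 676 in expansions and 577, 4227, 2668 and 502 in polyclonal cells. It was high in polyclonal samples 2 and 3, like Tap2, and its log2 differences were 1.32, -2.29, -1.002 and 0.43 in pairs 1 to 4. Psmb9 (1450696_at) read 5352, 2256, 2154 and 1367 in expansions and 2819, 2488, 2172 and 3037 in polyclonal cells. The differences were 0.92, -0.14, -0.01 and -1.15, so expansion 1 was its highest sample and expansion 4 its lowest. Psmb8 (1422962_a_at) read 4308, 3903, 3808 and 2803 in expansions and 2732, 2969, 2706 and 4785 in polyclonal cells, higher in the first 3 pairs and lower in pair 4. None of the 3 passed in the alpha4-low pairs (limma adjusted p = 0.967, 0.989 and 0.999 for Psmb10, Psmb9 and Psmb8).

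In all, 0 of the 22 members passed in the alpha4-low pairs, where 0.0533% of all probe sets did. At an unadjusted p under 0.05 there were 4 members, all lower (2 for H2-K1, 1 for H2-D1 and Tap2), where 5.11% of all probe sets passed in either direction and 3.91% were lower. By the brightest probe sets 7 of 10 genes had an alpha4-low mean below 0, as did 55.5% of all probe sets. The 8 member probe sets that were lower in each alpha4-low pair are 36.4% of 22, against 15% of all tested, and 2 were higher in each, against 9.99%.

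A direct test of whether the subclasses differ rested on pair 1 alone for the alpha4-high side. No member passed (0 of 22, against 0.0533% of all), and 4 had an unadjusted p under 0.05, against 6.57% of all probe sets. All 4 had a negative difference, as did 4.06% of all at that level. Tap2 had a difference of differences of -4.11 (SE 1.03, limma adjusted p = 0.245), H2-K1 1427746_x_at one of -3.85 (SE 0.91, limma adjusted p = 0.187) and Psmb10 one of -2.27 (SE 1.02, limma adjusted p = 0.731). That of the brightest H2-K1 probe set was -1.82 (SE 0.75, limma adjusted p = 0.662). Tap2 and H2-K1 1427746_x_at passed without pair 4 (limma adjusted p = 0.00440 and 0.0243), and the latter without pair 3 too (limma adjusted p = 0.00209). In those fits 227 and 277 of all probe sets passed, against 12 with all pairs. They set pair 1 against 2 alpha4-low pairs, whose spread is the only one measured, and assume that the lone pair varies alike.

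Sort purity and RNA quality differed between the samples compared. Polyclonal samples 2 and 3, which had the highest values of Tap2 and Psmb10, had the lowest purities (75 and 66%). The brightest H2-K1 probe set was highest in polyclonal sample 2 and next in expansion 1. With purity as a covariate, the alpha4-low log2 differences were -1.18 for Tap2, -0.63 for the brightest H2-K1 probe set and 0.092 for Psmb10, and 0 members passed. The all-pairs differences were then 0.15, 0.01 and 0.51. The purity term leaves fewer residual degrees of freedom than the 3 and 2 of the main fits, so these values are imprecise. An actin probe set near the 5' end had 2.61 and 1.84% of the signal of one near the 3' end in the expansion and partner of mouse 1. The corresponding shares were 1.90 and 2.35% in mouse 2, 2.10 and 2.87% in mouse 3, and 1.85 and 1.12% in mouse 4. In pairs 1 to 3 the sample with the higher share had the higher H2-K1, Tap1, Tap2 and Psmb10 signals, and in pair 4 it had the higher signal of Psmb10 alone among these. By the brightest probe sets, H2-D1 and Psmb9 also followed the share in pairs 1 to 3. Tapbp and Psmb8 went against it in pairs 2 and 3, and Calr in pair 3. B2m went against it in pairs 1 to 3, though its log2 differences in pairs 1 and 2 were only -0.03 and 0.02. The part of either in the result was not tested.

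Other genes of the pathway gave no call in any of these 3 comparisons. Apart from a few fixed by role, those named here and in the next paragraph had the smallest p of their lists. Agreement between their pairs is therefore partly built in by the choice. Over all tested probe sets, 4.79% were higher and 6.05% lower in all 4 pairs. In each of the 3 alpha4-low pairs, 9.99% were higher and 15% lower. For nonclassical class I genes, 11 were tested and 0 passed in either direction. The median log2 difference was 0.04 over all pairs and -0.15 in the alpha4-low pairs, against -0.07 for all probe sets in the latter. Cd1d1 (1449130_at), which presents lipids, was lower in 4 of 4 pairs (mean -0.77 ± 1.15, SD, n = 4). Its differences in pairs 1 to 4 were -0.07, -0.18, -2.48 and -0.33, so pair 3 weighs most in the mean. A second Cd1d1 probe set (1449131_s_at) was higher in pair 1, at 0.19, and lower in the other pairs. H2-M3, which presents formylated peptides, had a mean of 0.03. Among 18 tested genes of peptide loading and trimming, 0 passed, and the alpha4-low median was -0.07. Canx, the chaperone calnexin, was higher in 3 of 3 alpha4-low pairs (mean 0.77 ± 0.37, SD, n = 3; limma adjusted p = 0.955). The peptidase gene Tpp2 was lower in 3 of 3 (mean -0.85 ± 0.64, SD, n = 3; limma adjusted p = 0.966). The trimming enzyme Erap1 and the loading cofactor Pdia3 had alpha4-low means of 0.10 and -0.19.

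Proteasome core and activator genes (22 tested, 0 passed) had an alpha4-low median of -0.25. Psma5 and Psma6, subunits of the outer ring, were higher in 4 of 4 pairs (means 0.33 ± 0.10 and 0.45 ± 0.45, SD, n = 4). The constitutive subunits Psmb5 and Psmb6 had log2 differences of 0.92 and 1.22 in pair 1 and of -0.96 and -1.18 in pair 2. In those pairs the immunoproteasome subunits Psmb9 and Psmb10 had the same signs, Psmb9 at only -0.14 in pair 2. The immunoproteasome subunit Psmb8 (1422962_a_at) was higher in both, at 0.66 and 0.39. Psmb7 had -0.25 and 0.66. Psme1, a subunit of the proteasome activator, had an alpha4-low mean of -0.52. Pomp, which helps assemble the proteasome, and the subunit Psma4 were lower in 3 of 3 alpha4-low pairs (means -0.87 and -0.71, limma adjusted p = 0.966 and 0.970). The regulators of class I transcription (14 tested, 0 passed) had an alpha4-low median of -0.26. Nlrc5, the class I transactivator, had differences of 0.44, -0.49, 0.74 and -0.30 in pairs 1 to 4, and Irf1 had 1.08, -0.42, -0.74 and -0.26. Nfya was lower in 4 of 4 pairs (mean -0.64) and Rfxap in 3 of 4 (mean -0.39), both parts of the complexes that bind class I and class II promoters, while Rfx5 had a mean of 0.39 and the receptor gene Ifngr1 one of -0.50. Of 8 tested class II presentation genes 0 passed, and Cd74, the invariant chain, was higher in 4 of 4 pairs (mean 1.40).

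For each member the gene with the most similar profile over the 8 arrays was sought, by the root mean square difference of profiles centred on their means. For H2-K1 it was H2-D1 (0.40 log2 units) and for H2-D1 it was H2-Q5 (0.26). For Tap2 it was Bst2, the interferon-induced membrane protein tetherin, at 0.19, where the standard deviation of Tap2 itself was 1.90 and the gene next in order stood at 0.58. For Psmb10 it was Dip2c (0.19), for Tap1 Zfp36l1 (0.12), for Psmb9 Otud7b (0.11) and for Psmb8 Pacc1 (0.07). For B2m, Tapbp and Calr these were Xpo7 (0.10), Spc25 (0.15) and Cds2 (0.24). No member was the nearest of another except within the heavy chains.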

How the data were processed

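Per the labels' protocols, RNA was taken from sorted cells, put through 2 rounds of amplification and given a biotin label. The deposited table holds 1 linear intensity per probe set and array, made by the authors with MAS5 per the submitters' processing notes (version not given in the sources used here). Every array has the same 2% trimmed mean of 500, which hides changes in total RNA. Double amplification favours 3' ends.

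Values were taken as log2(value + 5), so folds of dim probe sets are understated. The 64 control probe sets and those with a mean not above the median (a signal of about 45.3) were left out. The limma 3.58.1 package (R 4.3.3; lmFit, eBayes with intensity trend) was fitted to all 22518 others with mouse as a block, since the design text pairs samples by animal. One model had 1 coefficient for all expansions (3 residual degrees of freedom), and another had one per subclass (2). P-values are two-sided and were adjusted by the Benjamini-Hochberg method, with a threshold of 0.05. Each expansion correlated with its partner, in deviations from group means, at 0.374, 0.0771, 0.214 and 0.338, and for mice 2 and 3 another mouse's sample correlated more (0.131 and 0.301). The descriptions number expansions 3 and 4 differently from the titles, which were used. The number of arrays limits precision.

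Members, lists and the background level were chosen with earlier results of these data known. Named genes were all members, by the probe set with the highest mean, and, from the other lists, up to 4 genes with the smallest p beside a few fixed by role. Psme2 and H2-T23, among the latter, were not analysed here. The platform annotation gives 1 gene for 34958 probe sets and several for 932. Bounds against background replace a B10.BR value by the background level where it is higher. Alternatives varied the pseudocount, filter, scaling, trend, block, purity and pairs. Figures were drawn with matplotlib.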

Additional observations from a re-analysis of the deposited data

Results flagged for a closer look

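Gaps within the groups of 4 were examined for the 22 tested members, 44 groups in all, where chance alone sets about 1 in 20 apart. A sample stood far from the others in 4. For H2-D1 1426324_at, expansion 4 read 167 against 1657 to 1786 in the other expansions (gap 0.968 of the range). For H2-D1 1451784_x_at, expansion 4 read 31.3 against 1407 to 2538 (0.862), and polyclonal sample 4 read 76.9 against 1592 to 2892 (0.833). For Psmb8 1422962_a_at, polyclonal sample 4 was high at 4785 against 2706 to 2969 (0.837). Each of these samples is from the B10.BR mouse.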

How the results depend on the processing

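The count of 7 members lower in B10.BR ranged from 6 to 8 over 8 alternatives. Over 3 comparisons, 0 members passed under other pseudocounts, filters, scalings, with no trend and with purity as a covariate. Without the replicate block that pairs samples by mouse, 0 members passed too, while 0, 0 and 143 of all probe sets passed (all pairs, alpha4-low, difference between subclasses) against 0, 12 and 12. Leaving out 1 pair each gave 0 to 1 members in the alpha4-low pairs and 0 to 2 in the difference, from Tap2 and H2-K1. Over all probe sets the alpha4-low count of 12 became 0 with no trend, 5 with quantile scaling, 8 with pseudocount 1, 29 with median centring, 22 with the stricter filter, 138 without pair 3 and 157 without pair 4. That of the difference became 0 with pseudocount 1, with quantile scaling and with no trend, and 29 with pseudocount 32, 25 with no filter, 63 with the stricter filter, 56 with centring, and 64, 277 and 227 without pairs 2, 3 and 4. Without pair 1 only the alpha4-low pairs are left, and 14 passed, against the alpha4-low count of 12. Signs of log2 differences, none of which had passed, reversed under some. Quantile scaling gave -0.085 for B2m over all pairs, -0.076 for it in the alpha4-low pairs and 0.078 for Calr in the latter. Centring gave 0.15 for Calr in the alpha4-low pairs and 0.12 for the subclass difference of Tapbp, and no replicate block gave -0.094 for that of B2m. With purity as a covariate, the all-pairs values were 0.0080 for H2-K1, 0.19 for H2-D1, 0.31 for Tap1, 0.15 for Tap2 and 0.51 for Psmb10, against -0.54, -0.27, -0.11, -1.16 and -0.39 without it, and the alpha4-low ones -0.74 for Tapbp, -0.74 for Psmb8 and 0.092 for Psmb10. Leaving out 1 pair moved the all-pairs value of H2-D1 between -0.61 and 0.13, Tap1 between -0.46 and 0.19, Psmb9 between -0.43 and 0.26, Psmb10 between -0.96 and 0.25 and Calr between -0.18 and 0.44. In the alpha4-low pairs Tapbp moved between -0.077 and 0.91, Psmb8 between -0.19 and 0.44 and Calr between -0.61 and 0.32, and the subclass difference of Tapbp between -0.64 and 0.35. The causes were not tested. One mouse each stands for the alpha4-high side and for B10.BR, and signals near background have no exact fold.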
